A study of Arabidopsis thaliana with 24 samples.

Results

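The mRNA of 50 nuclear genes of photosynthesis was followed in whole Arabidopsis thaliana seedlings of 2 brassinosteroid mutants, at 2 ages, with and without brassinolide (BL). The genes were taken by locus identifier from a table of read counts for 32678 loci and fall into 8 classes. These are 4 LHCA genes, 14 LHCB genes, 12 photosystem I (PSA) genes, 10 photosystem II (PSB) genes, 3 electron carrier genes (PETC, PETE1 and PETE2), 2 plastid ATP synthase genes (ATPC1 and ATPD), 4 RBCS genes and RCA. All 50 passed the filter on low counts in every comparison, so no gene dropped out.

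In the thylakoid membrane, LHCA and LHCB proteins bind chlorophyll and pass light energy to photosystem I and photosystem II. Plastocyanin (PETE) and the cytochrome b6f complex, to which the Rieske protein PETC belongs, carry electrons between the photosystems, and the ATP synthase uses the proton gradient. Rubisco, whose small subunit is encoded by RBCS and which is kept active by RCA, fixes CO2. These genes are known for strong transcription in light-grown green tissue, under light, clock and hormone control. Brassinosteroids are steroid hormones of growth, and BL is the most active of them.

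The cpd mutant lacks a functional CPD enzyme, a cytochrome P450 of brassinosteroid synthesis, and the triple mutant bri1-701 brl1 brl3 carries mutations in the receptor genes BRI1, BRL1 and BRL3. The genotype label spells the first allele brl1-701 and the design text bri1-701, which is the spelling followed here. The 8 groups of 3 libraries were triple mutant with BL, triple mutant without BL, cpd with BL and cpd without BL, each at 24 days and at 7 days. Every group carries one of these mutant genotypes, and no wild type was analysed here. The sources used here do not give the dose of BL, the length of treatment, the hour of harvest or the growth conditions. They also do not say whether replicate libraries stem from different plants. The p-values therefore cover the spread of these libraries alone, and that spread may be technical.

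Libraries held 17243503 to 20563151 counts at 24 days and 10180880 to 12531699 at 7 days, of which the 50 genes took 1.70 to 2.33% and 2.13 to 2.93%. BRI1 CPM (counts scaled to the library size) ranged over 44.6 to 78.6 in the 12 triple mutant libraries and 96.1 to 278 in the 12 cpd libraries, and CPD over 330.3 to 438 and 9.37 to 119, in the directions that the genotypes name. Replicates differed by a biological coefficient of variation of 15.0% at 24 days and 2.01% at 7 days. Chi-square values per degree of freedom between replicate libraries spanned 6.15 to 56.5 for 24-day and 1.13 to 1.49 for 7-day libraries, so 7-day replicates differed by little more than counting noise and small differences passed the test there. In RNA of whole seedlings, fewer green cells and less RNA per green cell cannot be told apart.

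The 5 LHCB1 genes, the 3 LHCB2 genes and the RBCS genes are copies of very similar sequence, and the sources used here do not say how reads that fit several copies were assigned. Of the 50 genes, 22 shared at least one 50-base stretch with another transcript, 17 of them over more than 10% of their length, and 17 overlapped another locus. Whether strand was used in counting is not said either, so reads of exon stretches that lie opposite a neighbour's exon cannot be told apart from that neighbour's reads. Such stretches made up all of LHCB1.5 and 58.8% of PSAG, 49.2% of PSAH1, 38.6% of LHCB2.3, 29.1% of PSAE1, 19.1% of PSAH2, 11.5% of LHCB3 and 10.9% of LHCB6, with smaller stretches in LHCA4, PSAE2 and PSBR. LHCB1.3 shared 22.0% with its LHCB1 copies and an antisense neighbour together. LHCB4.2, PSAN, RCA and PSBP1 overlapped an antisense locus without sharing a 50-base stretch of exon. Values of single copies are given with that limit, and each family was also fitted as a sum.

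Summed over classes, the photosynthesis genes were higher with BL than without in both genotypes at 7 days, and at 24 days the class sums with and without BL overlapped, except for the LHCA and electron carrier sums of cpd, which were lower with BL. On a scale shared by both ages, the 50 genes summed to 18684 ± 1721 CPM in 24-day triple mutant with BL, 19648 ± 1643 CPM in triple mutant without BL, 20418 ± 1948 CPM in cpd with BL and 22231 ± 803 CPM in cpd without BL (SD, n = 3 each). At 7 days the sums were 28915 ± 730.2 CPM in triple mutant with BL, 24821 ± 596 CPM in triple mutant without BL, 28015 ± 282 CPM in cpd with BL and 22147 ± 93.2 CPM in cpd without BL. In 24-day cpd the LHCA genes summed to 3211 ± 201 CPM with BL and 3769 ± 152 CPM without BL, and the electron carrier genes to 727 ± 41.5 CPM with BL and 924 ± 139.6 CPM without BL. The highest sums over the 50 genes were those of the BL groups at 7 days, and the lowest mean was that of 24-day triple mutant with BL.

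**Figure D1:**
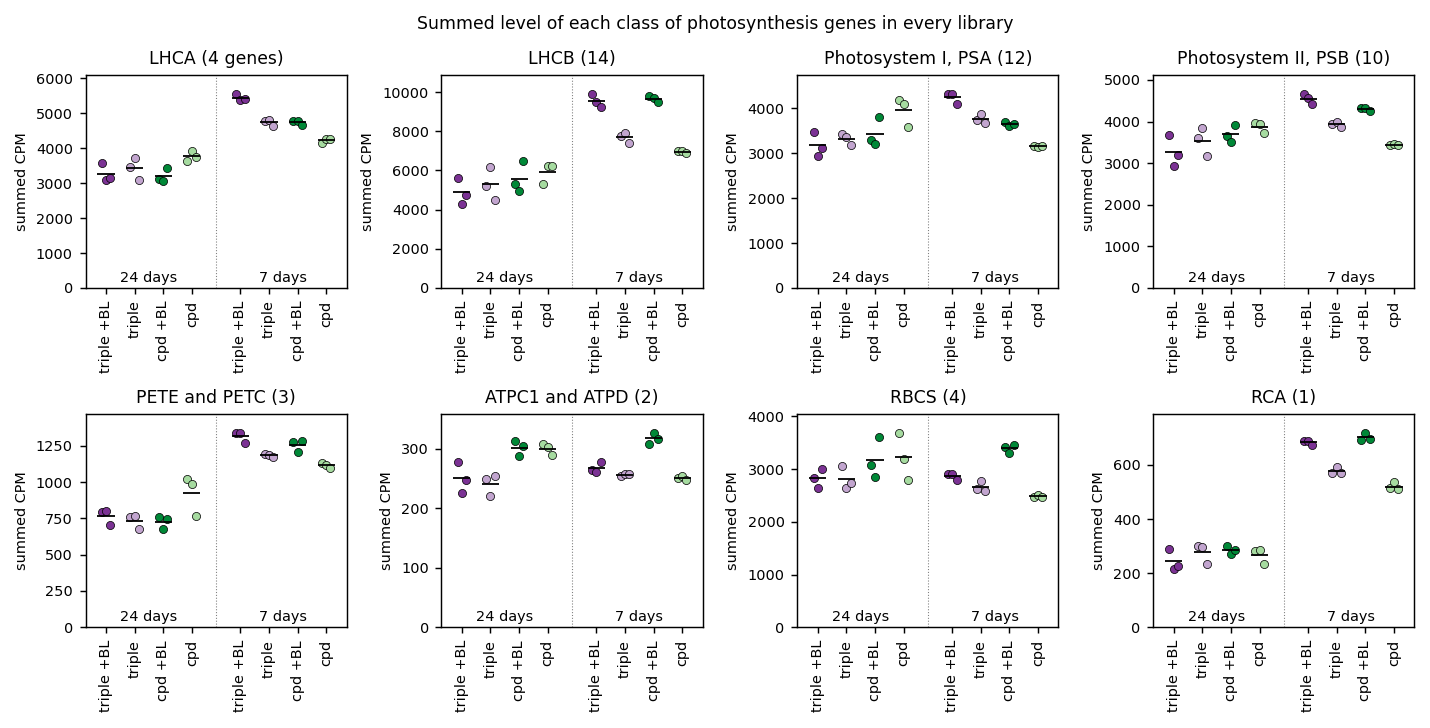
Summed CPM of each class (vertical axis, normalised over both ages) in every library, with groups along the horizontal axis, dots for libraries and a line for the group mean. At 7 days the BL groups lie above the untreated groups of the same genotype in every panel, and LHCB sums at 24 days lie below all those at 7 days.

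Most of the 50 nuclear genes were higher with BL in 7-day seedlings of both genotypes, by a small fold. In the triple mutant 44 of 50 genes were higher with BL and 0 lower (edgeR's quasi-likelihood test, adjusted p under 0.05), with a median log2 change of 0.22, while 11.4% of all 18378 genes tested were higher and 11% lower. In cpd 45 genes were higher and 0 lower, with a median of 0.33, while 27.7% of all genes were higher and 29.5% lower. DESeq2 also called 0 of the 50 lower in either genotype, and at unadjusted p under 0.05 edgeR gave 0 lower in the triple mutant and 1 in cpd. The median over all genes tested was near 0 in every comparison.

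These calls rest on the small 7-day spread. The larger 24-day spread was then put in its place, as 1 common value for all genes and with edgeR's likelihood-ratio test. So fitted, 1 gene was called higher in the triple mutant and 9 in cpd. The spread of single genes at 24 days differed from that common value.

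All 4 LHCA genes, which encode the antenna of photosystem I, rose with BL in both genotypes. LHCA4 (AT3G47470) had 1385, 1329 and 1368 CPM in triple mutant with BL, against 1140.0, 1131 and 1118 CPM without BL, and 1069.9, 1094 and 1024 CPM in cpd with BL, against 999, 1044 and 1032 CPM without BL. The 2 triple mutant groups lay well apart, while the cpd groups overlapped, and the log2 changes were 0.27 ± 0.02 in the triple mutant and 0.05 ± 0.02 in cpd. LHCA3 changed by 0.33 ± 0.02 and 0.43 ± 0.02, the larger change being that of cpd.

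Of the 14 LHCB genes, which encode the trimeric and the minor antenna proteins of photosystem II, 12 rose in the triple mutant and 12 in cpd. The major antenna gene LHCB1.2 (AT1G29910) had 705, 661 and 669 CPM in triple mutant with BL, against 499.9, 516 and 498 CPM without, and 854, 839 and 835 CPM in cpd with BL, against 520.5, 526 and 499 CPM without. BL groups did not overlap untreated groups in either genotype, and the change was 0.43 ± 0.03 in the triple mutant and 0.71 ± 0.02 in cpd. LHCB3 (AT5G54270), which encodes another trimer subunit, had the second largest log2 change in the triple mutant, 0.54 ± 0.03 (edgeR adjusted p = 9.62e-24), with 329, 325 and 308 CPM with BL against 223, 219.7 and 221 CPM without. LHCB1.1 followed with 0.47 ± 0.03.

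LHCB4.2 (AT3G08940), a copy of the minor antenna protein CP29, had 281, 267 and 259 CPM in triple mutant with BL, against 216, 224 and 205 CPM without. In cpd it had 342, 348 and 329.8 CPM with BL, against 196, 192 and 198 CPM without. The cpd libraries with BL were the highest of the 4 groups, and the log2 change was 0.32 ± 0.03 in the triple mutant and 0.80 ± 0.03 in cpd (edgeR adjusted p = 2.59e-35). Its copies LHCB4.1, at 0.01 ± 0.02, and LHCB4.3, at 0.09 ± 0.20, did not pass in the triple mutant.

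LHCB2.3 (AT3G27690), a copy of the second trimer protein, was the gene of this class whose sign in cpd was opposite to that of the class. It had 63.9, 62.5 and 57.9 CPM in triple mutant with BL, against 48.8, 47.3 and 50.9 CPM without, and 36.7, 36.8 and 39.6 CPM in cpd with BL, against 39.4, 44.7 and 40.0 CPM without. The triple mutant groups did not overlap and the cpd groups overlapped slightly. The change was 0.33 ± 0.05 in the triple mutant and -0.13 ± 0.06 in cpd, where it did not pass (edgeR adjusted p = 0.0518) and passed as lower in 3 of 6 fits that left out 1 library.

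All 12 PSA genes rose in the triple mutant and 10 in cpd, with medians of 0.22 and 0.23. PSAN (AT5G64040), a subunit on the lumen side where plastocyanin docks, had 347, 346 and 336 CPM in triple mutant with BL, against 278, 276 and 289.8 CPM without, a change of 0.29 ± 0.03. In cpd it had 245, 242 and 243 CPM with BL, against 256, 251 and 244 CPM without, a change of -0.04 ± 0.03 that did not pass (edgeR adjusted p = 0.216). PSAK (AT1G30380), at the antenna side of photosystem I, likewise rose in the triple mutant by 0.27 ± 0.03 and had 0.04 ± 0.04 in cpd, which did not pass (edgeR adjusted p = 0.391).

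All 10 PSB genes rose in the triple mutant and 9 in cpd, with medians of 0.19 and 0.34. PSBP1 (AT1G06680), of the oxygen-evolving complex, had 586, 566 and 566 CPM in triple mutant with BL, against 460.2, 461 and 453 CPM without, and 579, 571 and 568 CPM in cpd with BL, against 416, 418 and 418 CPM without. Neither pair of groups overlapped, and the changes were 0.32 ± 0.02 and 0.46 ± 0.02. PSBO1, the manganese-stabilising subunit of the same complex, changed by 0.19 ± 0.02 and 0.41 ± 0.02. PSBY (AT1G67740), a small subunit, had 0.01 ± 0.03 in cpd and did not pass there (edgeR adjusted p = 0.806).

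The electron carrier genes rose in 2 of 3 cases in the triple mutant and in 3 of 3 in cpd, whereas of the ATP synthase genes neither passed in the triple mutant and both rose in cpd. ATPD (AT4G09650), the delta subunit, had 59.4, 60.9 and 57.4 CPM in triple mutant with BL, against 55.7, 59.0 and 59.5 CPM without, and 76.1, 73.7 and 75.3 CPM in cpd with BL, against 59.6, 63.0 and 56.7 CPM without. Triple mutant groups overlapped, and the cpd libraries with BL lay above all others. The changes were 0.03 ± 0.05, which did not pass (edgeR adjusted p = 0.72), and 0.33 ± 0.05. PETE1 (AT1G76100), the minor plastocyanin gene, had 0.01 ± 0.06 (not passed) and 0.31 ± 0.06.

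An RBCS gene had the largest change of the 50 in each genotype, and the 4 copies differed widely. RBCS1B (AT5G38430) had 25.4, 28.1 and 25.4 CPM in triple mutant with BL, against 12.9, 15.2 and 14.4 CPM without, and 28.6, 28.9 and 28.3 CPM in cpd with BL, against 10.1, 10.9 and 12.1 CPM without. Groups with and without BL were separate in both genotypes, and the change was 0.90 ± 0.08 in the triple mutant (edgeR adjusted p = 1.94e-14) and 1.38 ± 0.08 in cpd (edgeR adjusted p = 7.74e-24).

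RBCS2B (AT5G38420) had 307, 311 and 295 CPM in triple mutant with BL, against 286, 299 and 276 CPM without. In cpd it had 479, 475 and 484 CPM with BL, against 230.0, 235 and 234 CPM without. The triple mutant groups overlapped, and the cpd libraries with BL stood clear of the other 9. The change was 0.08 ± 0.03 in the triple mutant (edgeR adjusted p = 0.0226) and 1.04 ± 0.03 in cpd (edgeR adjusted p = 7.91e-45). RBCS3B had 0.04 ± 0.03 in the triple mutant, which did not pass, and 0.44 ± 0.03 in cpd, and RBCS1A (AT1G67090), the main small-subunit gene, changed by 0.13 ± 0.02 and 0.33 ± 0.02. Fitted as a sum, the B copies RBCS1B, RBCS2B and RBCS3B changed by 0.08 ± 0.02 in the triple mutant and 0.67 ± 0.02 in cpd. RCA rose by 0.25 ± 0.02 and 0.43 ± 0.02.

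**Figure D2:**
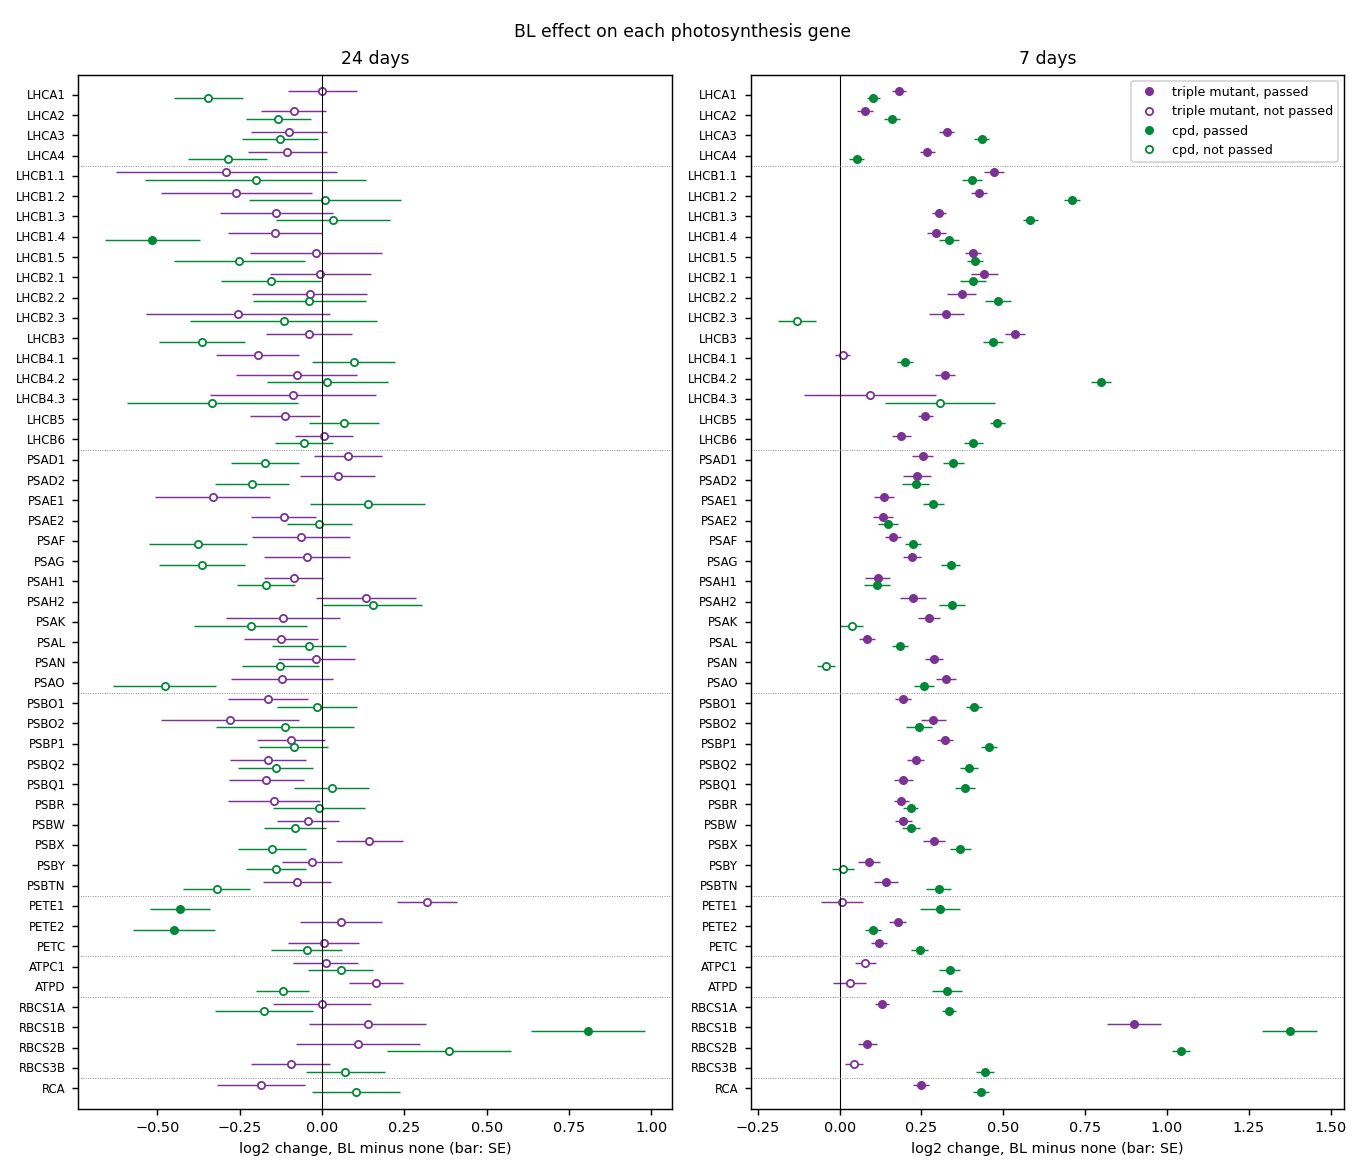
Log2 change with BL (horizontal axis, bars are SE) for each of the 50 genes (vertical axis), at 24 days on the left and at 7 days on the right, purple for the triple mutant and green for cpd, filled where the gene passed the test. At 7 days nearly all points lie right of 0, with RBCS1B, RBCS2B and LHCB4.2 of cpd farthest out, and at 24 days filled points are limited to RBCS1B, LHCB1.4, PETE1 and PETE2 of cpd.

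RBCS3B, RBCS2B and RBCS1B stand in tandem on the minus strand of chromosome 5, with gene spans chr5:15376988-15378642, chr5:15380907-15382071 and chr5:15383167-15385320 in the RefSeq annotation of TAIR10.1, which updates the TAIR10 build of the processing notes. The 300 bases before the annotated start of the 2 neighbours with the largest BL changes are shown for their place beside each other. They are chr5:15382072-15382371 and chr5:15385321-15385620, both minus strand, written 5′ to 3′, and capitals mark the G-box CACGTG and the I-box core GATAAG or its complement.
RBCS2B: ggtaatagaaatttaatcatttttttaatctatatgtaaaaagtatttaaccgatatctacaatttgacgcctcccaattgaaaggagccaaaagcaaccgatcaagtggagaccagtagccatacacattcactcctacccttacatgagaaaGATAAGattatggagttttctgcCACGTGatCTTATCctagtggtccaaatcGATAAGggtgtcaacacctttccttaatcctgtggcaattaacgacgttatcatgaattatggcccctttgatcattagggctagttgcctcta
RBCS1B: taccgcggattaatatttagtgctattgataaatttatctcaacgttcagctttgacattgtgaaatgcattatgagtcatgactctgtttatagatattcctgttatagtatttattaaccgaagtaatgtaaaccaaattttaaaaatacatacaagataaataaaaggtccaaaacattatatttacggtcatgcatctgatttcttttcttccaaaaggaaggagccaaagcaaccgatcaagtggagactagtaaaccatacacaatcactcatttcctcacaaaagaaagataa
The RBCS2B window held 3 I-box cores, at -146, -115 and -94 from the gene start, and 1 G-box at -123, and the RBCS1B window held neither. In the 500 bases before the start codon RBCS1B also held an I-box core, so this contrast depends on the window read.

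Over the 300-base windows of all 50 genes, both strands read, the G-box CACGTG was present in 12 (24%), against 7.09% of 27443 promoters of the annotation, and the I-box core GATAAG in 13 (26%), against 14.5%. The letters of the brassinosteroid response element, CGTGTG and CGTGCG, were present in 3 (6%) and 0 of the 50 windows, against 6.11% and 1.78% of all promoters. CACCG, a coupling element of abscisic acid responses, was present in 4 (8%), against 13.5%, and CCAAT in 35 (70%), against 51.9%. CACGTG can overlap CGTGTG or CGTGCG by its CGTG letters. A match describes these letters only, and in windows of 500 bases before the start codon the shares of G-box and I-box were 52% and 74%, against 9.34% and 23.5% of all promoters.

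The BL change itself differed between the genotypes at 7 days for 30 of the 50 genes. The difference, the change in the triple mutant minus that in cpd, was positive for 5 genes and negative for 25, with a median of -0.11, while 22.3% of all genes had a positive and 18.7% a negative difference past the test (edgeR). All 4 RBCS genes, RCA, both ATP synthase genes, 6 LHCB genes and 5 PSB genes were among the 25. RBCS2B had -0.96 ± 0.04 (edgeR adjusted p = 9.69e-33), RBCS1B -0.48 ± 0.12 and LHCB4.2 -0.48 ± 0.04. The positive ones were LHCB2.3 with 0.46 ± 0.08, PSAN with 0.33 ± 0.04, PSAK with 0.24 ± 0.05, LHCA4 with 0.22 ± 0.03 and LHCA1 with 0.08 ± 0.03. Fitted as sums, the difference was 0.04 ± 0.04 for LHCB2, which did not pass (edgeR adjusted p = 0.556), -0.14 ± 0.03 for LHCB1 and -0.60 ± 0.03 for the B copies of RBCS. With the 24-day spread assumed, the counts were 0 positive and 1 negative.

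Without BL, most of these genes were slightly higher in the triple mutant than in cpd at 7 days. Of the 50, 39 were higher and 2 lower, with a median log2 difference of 0.16, while 12.9% of all genes were higher and 15% lower (edgeR). LHCB1.4 (AT2G34430), of the major antenna, had 432, 445 and 397 CPM in untreated triple mutant, against 308, 316 and 306 CPM in untreated cpd. The groups did not overlap, and the difference was 0.45 ± 0.03 (edgeR adjusted p = 5.7e-21). RBCS1B had 0.36 ± 0.10, and without replicate 1 of untreated cpd it had 0.29 and missed the threshold (edgeR adjusted p = 0.053). PSAL (AT4G12800), a subunit where the antenna docks on photosystem I, had 0.33 ± 0.03.

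LHCB4.3 had the lowest value, -0.37 ± 0.19, and did not pass (edgeR adjusted p = 0.152). The 2 lower genes were LHCB2.1 at -0.11 ± 0.04 and LHCB2.2 at -0.12 ± 0.04, and each missed the threshold in 4 of 6 fits that left out 1 library and with DESeq2. No gene was called in either direction with the 24-day spread assumed (0 higher and 0 lower, edgeR, against 39 higher and 3 lower at unadjusted p under 0.05 with the 7-day spread).

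With BL, the genes were divided between the genotypes at 7 days. Of the 50 genes, 25 were higher and 12 lower in the triple mutant than in cpd, while 27.5% of all genes were higher and 25.9% lower (edgeR). All 4 LHCA genes, 10 of 12 PSA genes and 7 of 10 PSB genes were higher, and 3 of 4 RBCS genes and both ATP synthase genes were lower. Of the 14 LHCB genes 3 were higher and 6 lower, and neither the LHCB1 sum, at 0.02 ± 0.02, nor the LHCB2 sum, at -0.01 ± 0.03, passed (edgeR adjusted p = 0.567 and 0.831). The largest differences upward were 0.71 ± 0.05 for LHCB2.3, 0.49 ± 0.03 for PSAN and 0.48 ± 0.03 for PSAK. The largest downward were -0.66 ± 0.03 for RBCS2B, -0.58 ± 0.18 for LHCB4.3 and -0.34 ± 0.05 for ATPD. LHCB4.3 was the least abundant of the 50, with 2.89, 3.41 and 3.68 CPM in triple mutant with BL, against 5.41, 5.03 and 4.49 CPM in cpd with BL. Against their class, LHCB1.4 was higher by 0.41 ± 0.03 and LHCB1.5 by 0.14 ± 0.02, and PETE1 was lower with -0.27 ± 0.06. With the 24-day spread assumed, 3 genes were called higher and 1 lower.

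At 24 days BL left few marks on these genes. In the triple mutant 0 of 50 were called higher and 0 lower (edgeR, and 0 with DESeq2), with a median of -0.08, and 0% of all 19731 genes were called in either direction, with 773 at unadjusted p under 0.05. At that unadjusted level 1 of the 50 was higher and 0 lower. The lowest values there were -0.33 ± 0.17 for PSAE1, -0.29 ± 0.34 for LHCB1.1 and -0.28 ± 0.21 for PSBO2, and the highest after PETE1 were 0.16 ± 0.08 for ATPD and 0.14 ± 0.10 for PSBX. None of these passed. In cpd 1 gene was higher and 3 lower with a median of -0.12, while 4.54% of all genes were higher and 5.18% lower. The marker sum of root genes was highest in replicate 3 of every 24-day group, at 49.3 to 52.3 CPM against 19.1 to 36.9 CPM in the other libraries of that age. In single libraries PHT1-1 reached 745 counts and no other root gene more than 147, so this sum may rest largely on PHT1-1. The part of the sum in these results was not tested, and without replicate 3 the counts in cpd were 0 higher and 7 lower. With the replicate number as a block, since numbers pair these libraries, the counts in cpd were 2 higher and 4 lower, LHCA1 being added with -0.34 ± 0.08 (edgeR adjusted p = 0.0174).

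RBCS1B was the gene called higher in 24-day cpd without the block. It had 36.5, 27.8 and 31.7 CPM with BL, against 18.4, 20.3 and 16.1 CPM without, and 16.8, 14.0 and 15.6 CPM in triple mutant with BL, against 17.3, 10.1 and 14.8 CPM without. The cpd libraries with BL lay above all others, and triple mutant groups overlapped. The cpd change was 0.81 ± 0.17 (edgeR adjusted p = 0.0133), and without replicate 1 of cpd with BL it was 0.70 and missed the threshold (edgeR adjusted p = 0.0638). RBCS2B had 0.38 ± 0.19 in cpd and did not pass (edgeR adjusted p = 0.238), and with the replicate block it had 0.37 ± 0.11 and passed (edgeR adjusted p = 0.044). PSAH2 followed with 0.15 ± 0.15, which did not pass.

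The plastocyanin genes fell in 24-day cpd with BL. PETE1 had 38.3, 31.4 and 38.4 CPM with BL, against 50.9, 50.2 and 44.7 CPM without, and 37.1, 35.8 and 37.4 CPM in triple mutant with BL, against 30.5, 27.3 and 30.6 CPM without. Untreated cpd was the highest group and untreated triple mutant the lowest, with no overlap between treatments in either genotype. The change was -0.43 ± 0.09 in cpd (edgeR adjusted p = 0.0123) and 0.32 ± 0.09 in the triple mutant, which did not pass. The difference between the genotypes' BL changes was 0.75 ± 0.13 (edgeR adjusted p = 0.00962). Without replicate 3 of every 24-day group it was 0.87 and missed the threshold (edgeR adjusted p = 0.052). It was the 1 gene of 50 with a positive difference at 24 days, and 0 were negative (edgeR, 0 also with DESeq2 and 1 at unadjusted p), while 1.59% of all genes had a positive and 1.16% a negative one. PETE2 with 0.51 ± 0.17, LHCB1.4 with 0.37 ± 0.20, RBCS1B with -0.67 ± 0.25, PSAE1 with -0.47 ± 0.25 and LHCB4.1 with -0.29 ± 0.18 did not pass.

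PETE2 (AT1G20340), the main plastocyanin gene, had 499.8, 456 and 512 CPM in cpd with BL, against 745, 723 and 535 CPM without, and a change of -0.45 ± 0.12 (edgeR adjusted p = 0.042). LHCB1.4 had 474, 406 and 552 CPM with BL, against 594, 759 and 691 CPM without, and -0.51 ± 0.14 (edgeR adjusted p = 0.0433). Treated and untreated libraries did not overlap for either gene, and 1 untreated PETE2 library lay close to the treated ones. PETE2 missed the threshold in 5 of 6 fits that left out 1 library and LHCB1.4 in 4 of 6. PSAO (AT1G08380), where the mobile antenna docks on photosystem I, had -0.48 ± 0.16 and did not pass (edgeR adjusted p = 0.0777), and passed with DESeq2.

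Untreated 24-day triple mutant had lower levels than untreated cpd for 3 of 50 genes and higher for 0 (edgeR), with a median log2 difference of -0.23, while 0.791% of all genes were higher and 0.253% lower. At unadjusted p under 0.05, 19 of the 50 were lower and 1 higher, and DESeq2 called 6 lower and 0 higher. PETE1 had -0.72 ± 0.09 (edgeR adjusted p = 0.0069), and missed the threshold without replicate 1 of untreated cpd (edgeR adjusted p = 0.053). ATPD had 59.9, 55.3 and 64.2 CPM in untreated triple mutant, against 87.9, 90.3 and 76.2 CPM in untreated cpd. The difference was -0.50 ± 0.08 (edgeR adjusted p = 0.017). The 6 fits leaving out 1 library called 0 to 5 of the 50 genes lower, so ATPD did not pass in all of them. PSBX (AT2G06520), a small photosystem II subunit, had 171, 167 and 158 CPM in untreated triple mutant, against 250.0, 241 and 213 CPM in untreated cpd. Its difference of -0.51 ± 0.10 (edgeR adjusted p = 0.0425) missed the threshold in 4 of 6 such fits. No triple mutant library reached the lowest cpd library for any of these genes.

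With the replicate block 6 genes were lower and 0 higher in untreated 24-day triple mutant. The 3 added were LHCB3 with -0.51 ± 0.12 (edgeR adjusted p = 0.0362), PSAD1 with -0.36 ± 0.10 and PSAD2 with -0.41 ± 0.10. Without the block LHCB3 had -0.51 ± 0.13 and did not pass (edgeR adjusted p = 0.0895), and it passed with DESeq2. The highest values were 0.67 ± 0.28 for LHCB2.3, 0.29 ± 0.17 for PSAE1 and 0.16 ± 0.13 for LHCB4.1, and none of these passed.

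With BL at 24 days, the triple mutant had lower RBCS1B, at -1.05 ± 0.17 (edgeR adjusted p = 0.00279), and lower RBCS2B than cpd. RBCS2B had 516, 348 and 566 CPM in triple mutant with BL, against 831, 644 and 778 CPM in cpd with BL. The groups did not overlap, and the difference of -0.66 ± 0.19 (edgeR adjusted p = 0.0455) missed the threshold in 5 of 6 fits leaving out 1 library. These were the 2 genes called lower of 50, with 0 higher (edgeR, 0 also at unadjusted p and with DESeq2), while 5.6% of all genes were higher and 5.48% lower. With the replicate block 4 were lower, PSAH2 being added with -0.32 ± 0.09 and ATPC1 with -0.28 ± 0.08. LHCB4.2 with -0.40 ± 0.18, LHCB2.3 with 0.53 ± 0.28, LHCB4.3 with 0.40 ± 0.26 and LHCB1.4 with 0.20 ± 0.14 did not pass.

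The change with BL in cpd depended on age for 24 of the 50 genes. The change at 24 days minus that at 7 days was negative past the test for 24 and positive for 0 (edgeR, 0 also at unadjusted p and with DESeq2), with a median of -0.46, while 5.51% of all genes had a positive and 4.16% a negative difference. The 24 included 7 LHCB, 5 PSA, 5 PSB, 2 LHCA, 2 electron carrier, 2 RBCS genes and 1 ATP synthase gene. LHCB1.4 had -0.85 ± 0.15 (edgeR adjusted p = 0.00107), LHCB3 -0.84 ± 0.14 (edgeR adjusted p = 0.000534) and LHCB4.2 -0.79 ± 0.20 (edgeR adjusted p = 0.0148). LHCB3 had 195, 225 and 249 CPM in 24-day cpd with BL, against 301, 310.1 and 251 CPM without, and 324, 324 and 294 CPM in 7-day cpd with BL, against 229, 226 and 226 CPM without. BL libraries were thus the lower ones at 24 days and the higher ones at 7 days. At 24 days the nearest libraries lay at 249 and 251 CPM, and the LHCB3 change with BL did not pass there on its own. LHCB4.2 missed the threshold without replicate 2 of 24-day cpd with BL (edgeR adjusted p = 0.0527), and without replicate 3 of every 24-day group 39 genes were negative, and 34 with the replicate block. The values nearest to 0 or above were 0.01 ± 0.30 for LHCB2.3, -0.09 ± 0.12 for PSAN and -0.11 ± 0.13 for LHCB4.1, which did not pass. Both ages share 1 estimate of the spread in this fit, although their replicates differed in it. The labels name the 24-day and the 7-day libraries by different schemes, and the sets differ in depth and spread, so age and library set cannot be told apart here or in the comparisons between ages that follow.

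**Figure D3:**
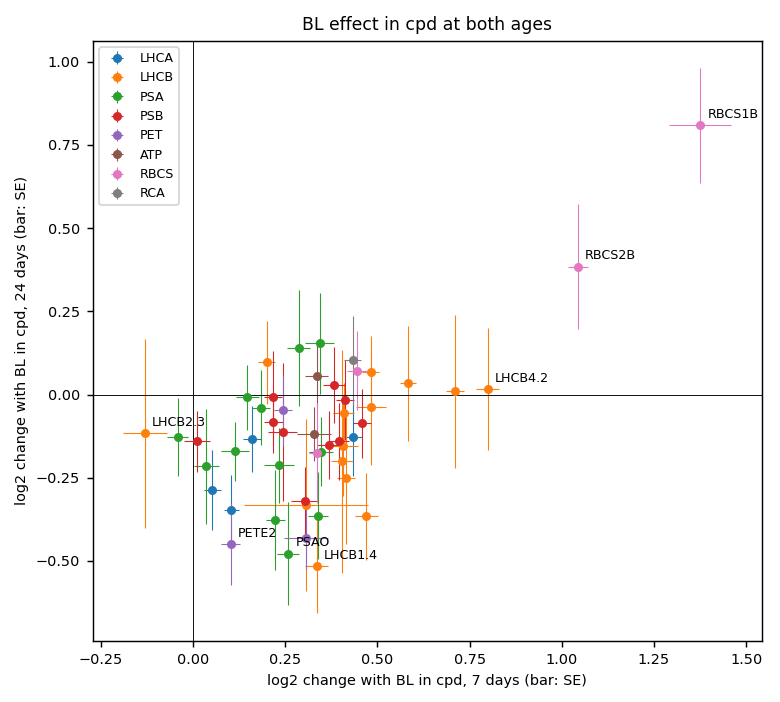
Log2 change with BL in cpd at 24 days (vertical axis) and at 7 days (horizontal axis) for each of the 50 genes, bars are SE and colours are classes. Most points lie right of 0 and near or below 0 on the vertical axis, and RBCS1B, at 0.81 at 24 days and 1.38 at 7 days, is far out on both.

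At 24 days most antenna genes of photosystem II were lower than at 7 days in untreated seedlings of both genotypes, while photosystem subunits were divided. In the triple mutant 9 of 50 genes were higher at 24 days and 28 lower, with a median log2 change of -0.27, while 34.9% of all 19935 genes were higher and 34.5% lower (edgeR). In cpd 20 were higher and 18 lower, with a median of 0.02, while 34.9% of all genes were higher and 34.9% lower. Of the 14 LHCB genes 10 fell and 2 rose in the triple mutant, and 9 fell and 3 rose in cpd. Of the PSA genes 4 rose and 5 fell in the triple mutant, and 6 rose and 4 fell in cpd. Of the PSB genes 2 rose and 4 fell in the triple mutant, and 5 rose and 2 fell in cpd. Against their class, PSAK, PSAL, PSAN and PSAO fell in cpd, with log2 changes of -0.45, -0.70, -0.35 and -0.85, PSBO2 and PSBW fell with -0.63 and -0.85, and LHCB3 rose by 0.31. In the triple mutant PSAD1, PSAG and PSBY rose by 0.40, 0.33 and 0.62, and RBCS3B fell with -0.41.

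LHCB1.1 (AT1G29920) had 31.5, 54.2 and 19.5 CPM in 24-day triple mutant, against 265, 258 and 253 CPM at 7 days, and 30.3, 38.2 and 29.9 CPM in 24-day cpd, against 282, 273 and 256 CPM at 7 days. The ages were far apart in both genotypes, and the log2 changes were -2.89 ± 0.25 and -3.04 ± 0.26. LHCB1.2 fell by 1.99 on the log2 scale in both genotypes, and LHCB2.1 changed by -2.16 ± 0.12 and -1.86 ± 0.12. LHCB1.3 (AT1G29930) went the other way. It had 2275, 2796 and 1927 CPM in 24-day triple mutant, against 1857, 1917 and 1764 CPM at 7 days, and 2224, 2532 and 2686 CPM in 24-day cpd, against 1600.4, 1617 and 1618 CPM at 7 days. All 24-day libraries were above the 7-day ones, with changes of 0.34 ± 0.13 in the triple mutant, which missed the threshold with the replicate block (0.31, edgeR adjusted p = 0.0972), and 0.62 ± 0.13 in cpd, and LHCB1.4 changed by 0.47 ± 0.11 and 1.1 ± 0.11.

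The minor antenna gene LHCB6 (AT1G15820) had 140.2, 137 and 126 CPM in 24-day triple mutant, against 381, 385 and 365 CPM at 7 days, and 155, 177 and 163 CPM in 24-day cpd, against 324, 329 and 329 CPM at 7 days. RCA (AT2G39730) had 299, 297 and 235 CPM in 24-day triple mutant, against 569, 592 and 571 CPM at 7 days, and 282, 286 and 233 CPM in 24-day cpd, against 513, 537 and 509 CPM at 7 days. Both genes were lower at 24 days in every library, and RCA changed by -1.06 ± 0.10 and -0.96 ± 0.10. PETC (AT4G03280), the Rieske protein, changed by -1.34 ± 0.08 and -0.90 ± 0.08.

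Genes higher at 24 days in both genotypes included PSAD2 (AT1G03130), on the stromal face of photosystem I where ferredoxin docks, PSAH1 (AT3G16140), which contacts the mobile antenna, and PSBTN (AT3G21055), a small photosystem II subunit. PSBTN had 198, 201 and 189 CPM in 24-day triple mutant, against 122, 119 and 115 CPM at 7 days, and 253, 258 and 203 CPM in 24-day cpd, against 102, 95.4 and 104 CPM at 7 days. The ages did not overlap, and the changes were 0.72 ± 0.08 and 1.24 ± 0.08. PSAD2 changed by 0.80 ± 0.09 and 1.21 ± 0.09, and PSAH1 by 0.83 ± 0.07 and 1.2 ± 0.08. RBCS2B changed by 0.58 ± 0.14 in the triple mutant and 1.27 ± 0.15 in cpd. PETE1 was lower at 24 days in the triple mutant, at -0.28 ± 0.08, and higher in cpd, at 0.49 ± 0.08.

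**Figure D4:**
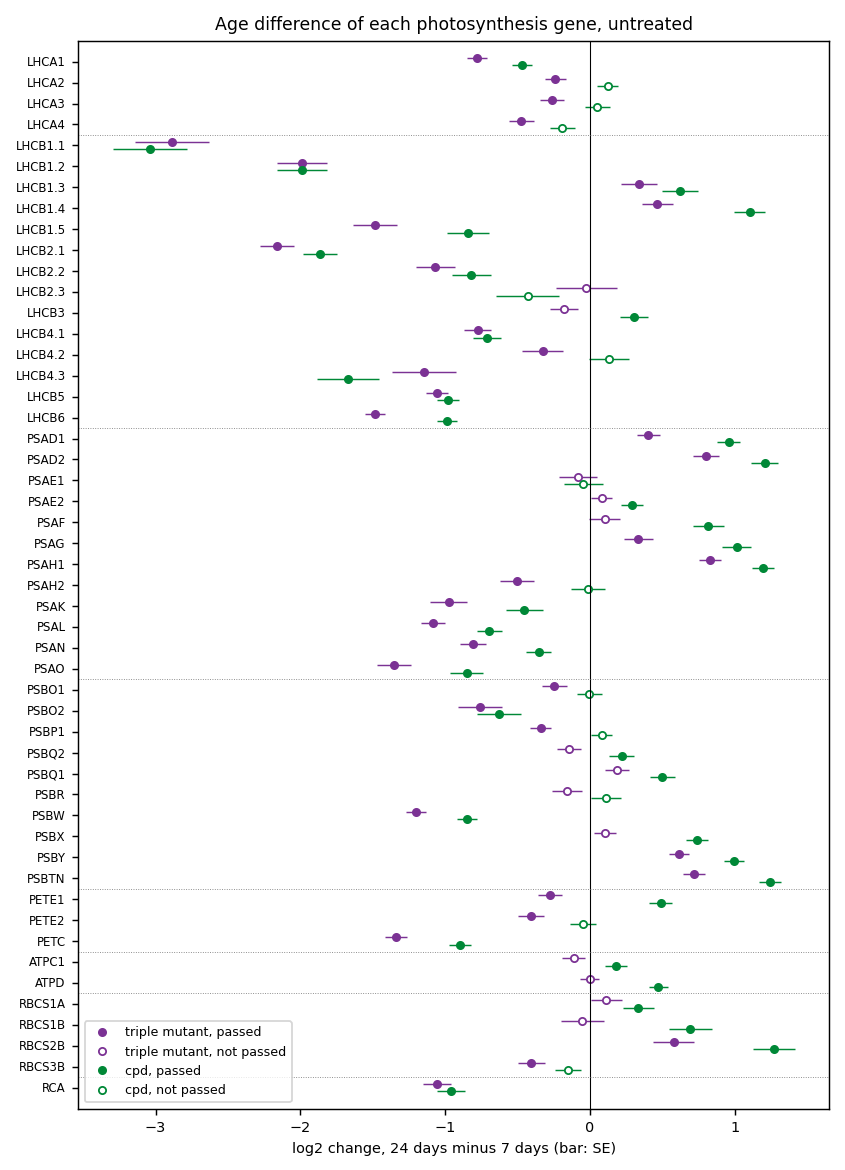
Log2 change at 24 days relative to 7 days without BL (horizontal axis, bars are SE) for each of the 50 genes (vertical axis), purple for the triple mutant and green for cpd. LHCB1.1, LHCB1.2 and LHCB2.1 lie near -2 or below in both genotypes, and PSBTN, PSAD2 and PSAH1 lie right of 0.

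The make-up of gene families differed between the ages. Summed, LHCB1 changed by -0.39 ± 0.12 in the triple mutant (edgeR adjusted p = 0.00747) and -0.05 ± 0.12 in cpd, which did not pass (edgeR adjusted p = 0.71). Per exon base, LHCB1.3 gave 59.5 ± 2.43% of LHCB1 reads in 24-day triple mutant with BL, 60.3 ± 1.16% without BL, 61.3 ± 3.23% in cpd with BL and 56.0 ± 2.32% without BL (SD, n = 3 each). At 7 days its shares were 33.3 ± 0.394%, 34.8 ± 0.155%, 35.8 ± 0.379% and 33.8 ± 0.607% in the same order of groups. The share of LHCB1.3 was thus higher at 24 days in each of the 4 pairs of groups. In untreated triple mutant LHCB1.1 gave 0.814 ± 0.252% at 24 days and 4.57 ± 0.131% at 7 days, and LHCB1.5 gave 21.1 ± 1.37% at 24 days and 43.3 ± 0.0844% at 7 days. Every 50-base stretch of LHCB1.5 is also found in a locus on the opposite strand.

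Summed, LHCB2 changed by -1.04 ± 0.11 in the triple mutant and -1.08 ± 0.11 in cpd. LHCB2.3 gave 36.5 ± 7.61% of LHCB2 reads per exon base in 24-day triple mutant with BL, 38.7 ± 10.7% without BL, 24.0 ± 5.41% in cpd with BL and 24.9 ± 5.02% without BL. At 7 days it gave 18.6 ± 0.403%, 19.5 ± 0.935%, 11.2 ± 0.873% and 15.8 ± 1.3% in the same order. RBCS2B gave 29.9 ± 3.45% of RBCS reads in 24-day cpd with BL and 23.3 ± 4.64% without, and 19.0 ± 0.275% in 7-day cpd with BL and 12.7 ± 0.0996% without. Its shares in the triple mutant were 21.4 ± 3.89% with BL and 20.1 ± 3.39% without at 24 days, and 14.3 ± 0.0919% and 14.6 ± 0.175% at 7 days. The cpd groups with BL held the highest mean share of RBCS2B at each age.

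**Figure D5:**
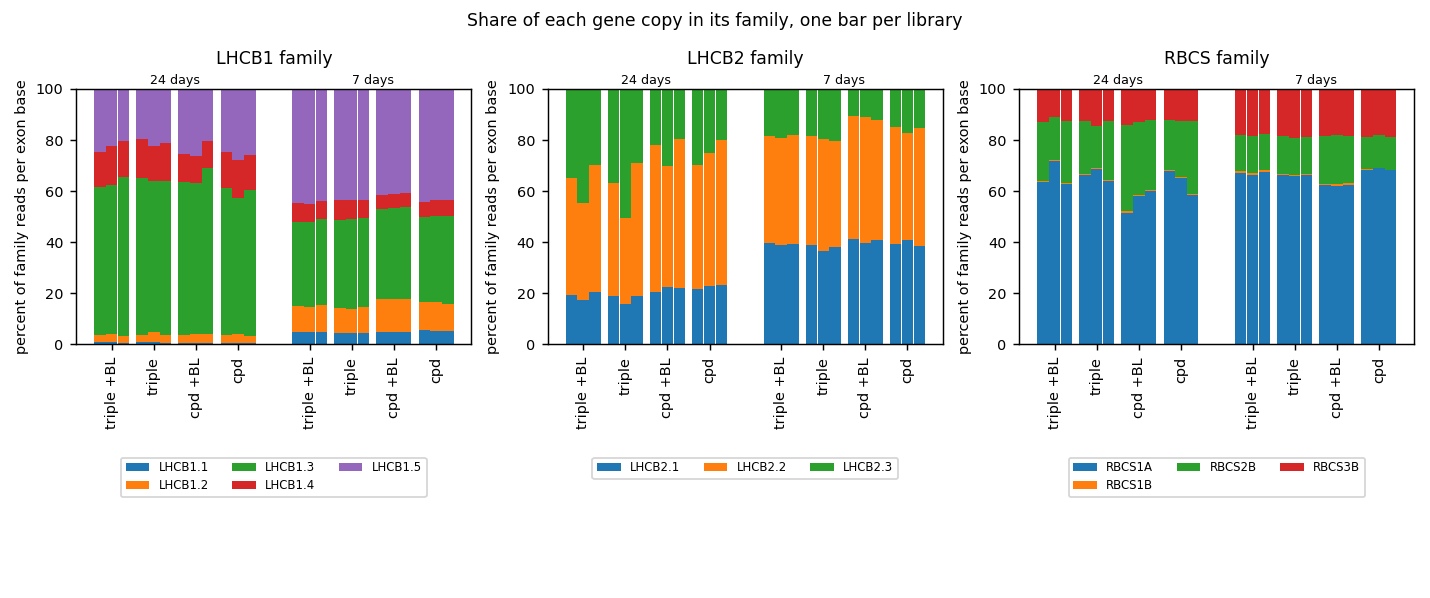
Share of each copy in its family (vertical axis, percent of family reads per exon base) in every library, with groups along the horizontal axis and panels for LHCB1, LHCB2 and RBCS. LHCB1.3 takes over 55% of the LHCB1 bar in each 24-day group mean and under 36% at 7 days, and LHCB1.1 and LHCB1.2 shrink.

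LHCB1.1 and LHCB1.3 start close together on opposite strands of chromosome 1, with gene spans chr1:10474656-10475969 and chr1:10477885-10479114, and had age changes of opposite sign. The 300 bases before each start are shown for that reason, chr1:10475970-10476269 on the minus strand and chr1:10477585-10477884 on the plus strand, from TAIR10.1 and written 5′ to 3′ in lower case, since neither holds a G-box or an I-box core. In the 500 bases before the start codon an I-box core was present for LHCB1.3 and not for LHCB1.1.
LHCB1.1: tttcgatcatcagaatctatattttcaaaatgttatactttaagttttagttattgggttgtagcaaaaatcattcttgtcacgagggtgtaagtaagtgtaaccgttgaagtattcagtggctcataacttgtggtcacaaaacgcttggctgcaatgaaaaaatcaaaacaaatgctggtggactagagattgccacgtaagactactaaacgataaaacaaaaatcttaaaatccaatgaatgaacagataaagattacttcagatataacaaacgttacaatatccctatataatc
LHCB1.3: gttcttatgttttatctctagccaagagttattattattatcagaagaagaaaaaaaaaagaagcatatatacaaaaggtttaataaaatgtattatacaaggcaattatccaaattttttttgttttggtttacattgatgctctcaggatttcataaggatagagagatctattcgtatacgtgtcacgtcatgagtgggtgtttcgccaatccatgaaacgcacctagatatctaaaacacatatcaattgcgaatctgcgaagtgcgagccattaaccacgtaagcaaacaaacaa
In CPM per kilobase of exon, LHCB1.3 had the highest level of the 50 genes at 24 days in each group, for example 1896 ± 355 in untreated triple mutant and 2017 ± 191 in untreated cpd. RBCS1A was next with 1526 ± 121 and 1709 ± 339, and its interval of 1 SD overlapped that of LHCB1.3 in both genotypes. At 7 days LHCB1.5 was highest, with 1868 ± 71.5 in untreated triple mutant and 1691 ± 35.2 in untreated cpd. LHCB4.3 was lowest in every group.

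Genes that work beside these 50 were followed in lists of chlorophyll synthesis (18 genes), the Calvin cycle (16), other thylakoid proteins (19), regulators (17) and plastid-encoded subunits (11 genes tested). Their counts are to be read against the shares of all genes given above for each comparison, 11.4% higher and 11% lower with BL in the 7-day triple mutant and 27.7% higher and 29.5% lower in cpd. With BL at 7 days, 7 chlorophyll genes rose and 0 fell in the triple mutant, and 14 rose and 2 fell in cpd, with the reductase CHLP at 0.31 ± 0.03 and 0.46 ± 0.03 (edgeR). Of the Calvin cycle genes 7 rose and 1 fell in the triple mutant, and 10 rose and 1 fell in cpd, with phosphoribulokinase PRK at 0.47 ± 0.03 and 0.62 ± 0.03. Other thylakoid genes gave 8 higher and 0 lower in the triple mutant, and 9 higher and 5 lower in cpd. Regulators gave 3 higher and 3 lower of 17 in the triple mutant and 5 higher and 5 lower in cpd, close to the shares of all genes in cpd. Among them the light-induced sigma factor gene SIG5 rose by 0.67 ± 0.10 in the triple mutant and changed by -1.07 ± 0.10 in cpd. Plastid-encoded genes gave 0 higher and 2 lower in the triple mutant, and 1 higher and 0 lower in cpd.

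At 24 days none of the 18 chlorophyll genes and none of the 16 Calvin cycle genes was called with BL in either genotype (edgeR, adjusted p under 0.05). Of the regulators in cpd, GNC, a GATA factor that promotes greening, rose by 0.58 ± 0.13 and GLK1, an activator of LHCB genes, changed by -0.57 ± 0.12. For GLK1 the BL changes of the genotypes at 24 days differed by 0.84 ± 0.17 (edgeR adjusted p = 0.024). GLK1 was also lower with BL in 7-day cpd, at -0.62 ± 0.08 (edgeR adjusted p = 2.3e-10), where most LHCB genes were higher. The part of GLK1 in the LHCB results was not tested.

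With age, 10 of 11 plastid-encoded genes fell in each genotype, PSBA, the D1 protein of photosystem II, by 3.87 on the log2 scale in the triple mutant and by 3.35 in cpd. All plastid loci together took 0.0212 to 0.0272% of counts at 24 days and 0.0301 to 0.0623% at 7 days. The part of library preparation in this fall was not tested, and age and library set cannot be told apart. LHCB and RCA genes are known to be under clock control. Of 11 clock genes 4 rose and 5 fell with age in each genotype, not far from the 34.9% higher and 34.5 to 34.9% lower of all genes, TOC1 by 1.71 ± 0.05 in the triple mutant and 1.87 ± 0.05 in cpd, and CCA1 changed by -3.08 ± 0.28 in the triple mutant. With BL at 7 days 5 clock genes were higher and 0 lower in the triple mutant, and 1 higher and 5 lower in cpd. The shares of all genes were 11.4% higher and 11% lower in the triple mutant, and 27.7% and 29.5% in cpd. The difference of the BL changes passed as positive for 7 and as negative for 1, against 22.3% and 18.7% of all genes. The part of the clock genes in the age and BL results was not tested.

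Markers of other tissues were low beside the 50 genes. Over 13 root genes the sum was 19.1 to 52.3 CPM at 24 days and 10.1 to 18.9 CPM at 7 days, and over 6 flower genes 4.76 to 14.3 CPM in all libraries. The root hair genes EXPA18 and COBL9 had 0 counts in 12 and 13 of 24 libraries, while PHT1-1 and NRT2-1 had counts in all and CASP2 in all but 1. PHT1-1 had the highest count of the root genes in any library, 745, and CASP2 the next, 147. With age and without BL, 7 of 8 tested root genes rose and 1 fell in the triple mutant. In cpd 5 rose and 1 fell, against 34.9% of all genes higher in each genotype. Of the 13 root genes, 3 passed the filter in the 7-day fit, 11 in the 24-day fit and 8 in the fit of both ages. Genes that passed the filter through their 24-day counts were bound to tend upward with age, so these counts say little about root genes. Over 6 genes of senescing leaves, among them PAO of chlorophyll breakdown, the sum was 552 to 559.9 CPM in 7-day triple mutant with BL and 600.1 to 619 CPM without BL. In 7-day cpd it was 385 to 397 CPM with BL and 569 to 576 CPM without BL. PAO changed by -0.23 ± 0.03 and -0.65 ± 0.03. All 5 of the tested genes were lower with BL in 7-day cpd, against 29.5% of all genes. In the 7-day triple mutant 3 of 5 were lower with BL, against 11% of all genes. In 24-day cpd the sum was 301 to 336 CPM with BL and 411 to 493 CPM without BL. There 4 of 5 genes were lower, against 5.18% of all genes, and PAO changed by -0.51 ± 0.07 (edgeR adjusted p = 0.000784). In 24-day triple mutant the sum was 417 to 433 CPM with BL and 391 to 425 CPM without BL, and 0 of 5 genes were called. SAG12, the defining senescence marker, had 0 counts in 21 libraries, and the part of these markers in the BL results was not tested.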

How the data were processed

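The authors deposited whole-number read counts per locus in 1 table with a column per library, and 0 columns were left out. Trimmomatic 0.36, HISAT2 2.1.0, HTSeq 0.9.1 and TAIR10 are named in the submitters' processing notes, without settings or strand use in the sources used here. Groups were taken from the labels. Counts were scaled with TMM factors, filtered with filterByExpr (minimum count 10) and tested with edgeR 4.0.16 (limma 3.58.1, R 4.3.3), quasi-likelihood F test, Benjamini-Hochberg adjusted over all genes tested, threshold 0.05. The 4 groups of an age were fitted together, and all 8 groups for comparisons across age. Levels are normalised CPM. Counting error alone lets a count of 0 stand for up to 3 counts (0.146 to 0.174 CPM in 24-day libraries, 0.239 to 0.295 CPM in 7-day ones). The fit was tested on simulated data. Promoters and exon lengths came from RefSeq TAIR10.1, read with Python 3.11.15. Alternatives were DESeq2 1.42.0, its size factors, TMM without the 50 genes, no filter, the replicate number as a block, summed families, the 24-day spread at 7 days, and libraries left out. The 24-day spread was used as 1 common value for all genes, with edgeR's likelihood-ratio test in place of the quasi-likelihood test. Replicate numbers come from the titles. At 24 days same-numbered libraries of compared groups deviated together, with correlations over 0.1 in all 12 pairs (0.138 to 0.68), so the numbers were taken to pair them. At 7 days 0 of 12 were over 0.1.

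The 50 genes and the other lists (9 lists, 119 genes) were chosen with earlier results of these data known. Within a comparison the text gives the genes with the 3 largest and 3 smallest changes, those past the test with a sign opposite to their class, near-identical families and genes that show a class. Of other lists it gives up to 3 genes with the smallest adjusted p.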

Additional observations from a re-analysis of the deposited data

Results flagged for a closer look

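At 7 days the BL change differed between the genotypes by its own test (edgeR, adjusted p under 0.05), taken as the change in the triple mutant minus that in cpd. It was positive for 5 and negative for 25 of the 50 genes, while 22.3% of all genes had a positive and 18.7% a negative difference. The values were 0.46 for LHCB2.3, 0.33 for PSAN and 0.24 for PSAK, and -0.48 for LHCB4.2, -0.48 for RBCS1B and -0.96 for RBCS2B. At 24 days 1 gene had a positive difference, against 1.59% of all genes. This was PETE1 with 0.75, which missed the threshold without replicate 3 of every 24-day group. In cpd the BL change at 24 days minus that at 7 days was negative for 24 genes, against 4.16% of all genes. LHCB1.4 had -0.85, LHCB3 -0.84 and LHCB4.2 -0.79. Groups of 3 libraries were not searched for single libraries that stand apart.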

How the results depend on the processing

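Of the counts over the 50 genes and the motif shares, 331 alternative values stayed within the limits set for a change and 49 moved. Scaling with TMM without the 50 genes or with DESeq2 size factors, and no filter, moved none of these counts by over 1.5 times. With the common spread of the 24-day libraries, the 7-day counts of higher and lower genes were 1 and 0 for BL in the triple mutant, 9 and 0 for BL in cpd, 0 and 0 for untreated triple mutant against cpd, 3 and 1 for the genotypes with BL, and 0 and 1 for the difference of BL changes. Lower genes in untreated triple mutant at 7 days numbered 0 with DESeq2 and 0 with families summed. For BL in 24-day cpd, higher genes numbered 0 with families summed and 0 without replicate 3 of every group, and lower genes 6 with DESeq2 and 7 without replicate 3. For untreated triple mutant against cpd at 24 days, lower genes numbered 6 with DESeq2 and 7 without replicate 3. For the genotypes with BL at 24 days, lower genes numbered 1 with families summed and 1 without replicate 3. For the age dependence of BL in cpd, 39 genes were lower without replicate 3. With families summed, the LHCB1, LHCB2 and B RBCS copies were counted as 1 row per family, so single copies could not be called there. Why the other counts moved was not tested. Windows of 500 bases before the start codon, chosen after the data were seen, held the G-box in 52%, the I-box core in 74% and CCAAT in 90% of the 50 genes.

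With the replicate number as a block, BL in 24-day cpd gave 2 higher genes, untreated triple mutant against cpd at 24 days 6 lower, the genotypes with BL at 24 days 4 lower, and the age dependence of BL 34 lower. The block changed no call of the 50 genes at 7 days. Between ages it added LHCB2.3 in cpd and PSBQ1 in the triple mutant, and LHCA3, LHCB1.3 and PSBO1 were lost in the triple mutant.

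Leaving out 1 library at a time gave 0 to 1 lower genes for BL in 7-day cpd, 0 to 2 lower in untreated triple mutant at 7 days, 0 to 1 higher and 1 to 6 lower for BL in 24-day cpd, 0 to 5 lower in untreated triple mutant at 24 days, 1 to 2 lower for the genotypes with BL at 24 days, and 1 to 2 higher and 0 to 1 lower for the difference of BL changes at 24 days. Values near 0 changed sign. PSBY ranged over -0.018 to 0.055 for BL in 7-day cpd. For BL in the 7-day triple mutant ATPD ranged over -0.0025 to 0.052, LHCB4.1 over -0.016 to 0.026 and PETE1 over -0.055 to 0.045. LHCB1.1 ranged over -0.58 to 0.17 for BL in the 24-day triple mutant. For the age dependence of BL, LHCB2.3 ranged over -0.20 to 0.14 and had -0.011 with the replicate block, and PSAN had 0.013 without replicate 3 of every group. Depth was ample for all 50 genes but LHCB4.3, and 3 libraries per group and the spread between them limit precision at 24 days.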
